A study of Mus musculus with 28 samples.

Results

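Macrophages with intact Nrf2 that received the compound RA839 were set against the same kind of cells given the solvent alone, over all genes that the arrays named. The comparison held 8 of the 28 arrays of the series, chosen by their labels: 4 of Nrf2+/+ macrophages (WT) with RA839 and 4 of WT macrophages with DMSO, after an incubation of 4 h in both groups. All cells were cultured from total marrow; the donor mice were C57BL/6 J, 12 weeks old, and the DMSO content was 0.2% with and without the compound. The sources used here do not give the dose of RA839. For comparison, the same experiment held 4 arrays of macrophages from mice without Nrf2 (Nrf2-/-, KO) with RA839 and 4 with DMSO. A separate experiment on WT cells held 4 arrays each of the siRNAs siKeap1-1 and siKeap1-2 against Keap1 and 4 of a control siRNA (siControl). The series' design text calls the arrays of a group biological replicates and does not say whether mice were pooled. It writes RA838 where all sample labels write RA839.

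Nrf2, the product of Nfe2l2, is a transcription factor that is made and degraded continuously in unstressed cells. Keap1 binds it and presents it to a ubiquitin ligase, so that Nrf2 accumulates when this binding is blocked. Nrf2 then pairs with a small Maf protein and binds antioxidant response elements near genes for glutathione synthesis, quinone and peroxide detoxification, NADPH supply and export pumps. The series title describes RA839 as a small molecule that binds Keap1 without forming a covalent bond. In macrophages, Nrf2 is also known for lower expression of some inflammatory genes.

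Values are the deposited log2 array signals, so a difference of 1 is a 2-fold change, and each gene is represented by its probe set with the highest mean. Differences are RA839 minus DMSO with the standard error of the fit (n = 4 arrays per group). A gene is said to have risen or fallen where its limma p-value, adjusted over all 18193 genes, was under 0.05. The labels number the arrays of each group from 1 to 4, and same-numbered arrays of WT cells deviated together (correlations across genes of 0.27 to 0.46). Results that passed only with the number as a block in the fit are given as such. On the WT array with RA839 numbered 2, the Gapdh control probe sets read 3.74 higher at the 3′ than at the 5′ end of the transcript, against 0.82 to 1.00 on the other 7 WT arrays. For Actb that difference was 3.10 on this array and 1.68 to 2.04 on the others. Counts are therefore also given without both WT arrays numbered 2. The Nfe2l2 signal matched the genotypes: it lay between 11.85 and 12.58 in WT cells with RA839 and between 12.48 and 12.96 in WT cells with DMSO. In KO cells it lay between 3.18 and 3.38 with RA839 and between 3.27 and 3.52 with DMSO.

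In WT macrophages, 104 genes rose with RA839 and 16 fell, which is 0.66% of the genes tested (0.572% rose and 0.0879% fell). Of the rises, 40 were at least 2-fold and 80 at least 1.5-fold, with a median log2 difference of 0.87. The falls were smaller, with a median of −0.54, and the activin antagonist Fst was the only gene that fell at least 2-fold. Over all genes the median difference was −0.01. The 4 RA839 arrays did not overlap with the 4 DMSO arrays in 117 of the 120 genes, against 5.79% of all genes (3.4% with RA839 higher and 2.39% with RA839 lower). Within the same-numbered pairs, 103 of the 104 rises were higher in all 4 pairs (11.8% of all genes) and all 16 falls were lower in all 4 (12.5% of all genes). The genes were called on these same arrays, so such a separation largely follows from the selection and is not separate evidence. In DMSO cells the genes that rose had a median signal of 8.27 and those that fell 8.87, against 7.39 for all genes. Clone or gene model names stood for 13 of the rises, which are counted here and not named. Several probe sets measured 66 of the 120 genes. All probe sets of the gene had the same sign in 51 of these 66, and in 19 at least 1 other probe set also passed.

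**Figure D1:**
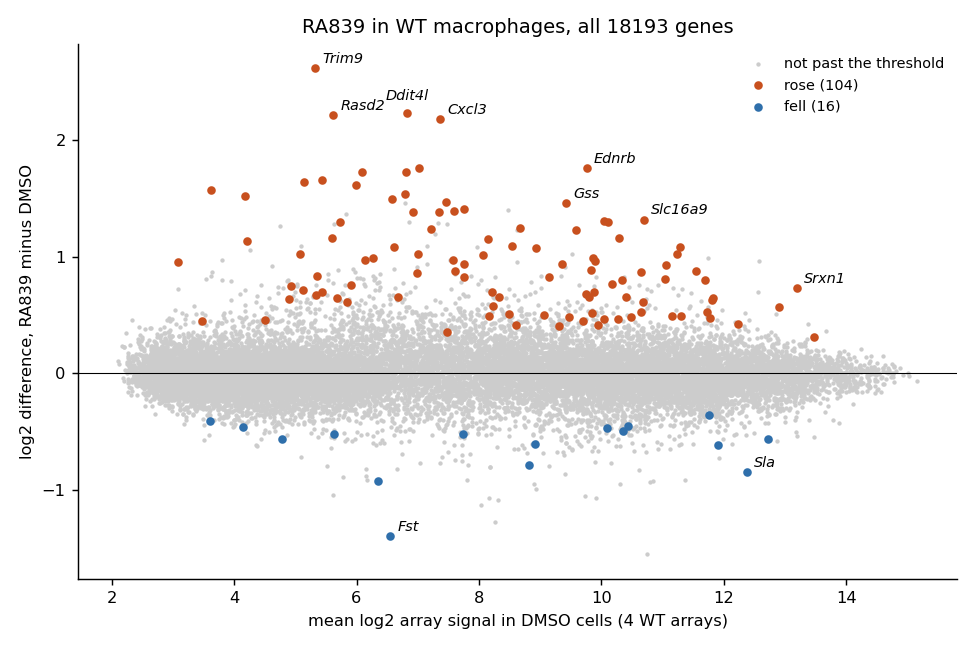
Log2 difference, RA839 minus DMSO, against the mean log2 signal in DMSO cells for all 18193 genes in WT macrophages, with the 104 genes that rose and the 16 that fell in colour. The rises reach 2.61 and the falls −1.40.

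The size of this set depended on how the spread was estimated. The fit without a block takes its spread from all 16 compound arrays, and the median SD over genes was 0.20 in WT cells with RA839 and 0.17 in WT cells with DMSO, against 0.14 in KO cells with either. With the replicate number as a block, 486 genes passed (2.67%), of which 315 rose (1.73%) and 171 fell (0.94%), and 119 of the 120 were among them. With only the 8 WT arrays in the fit, 65 genes passed without the block and 96 with it, and these held 50 and 56 of the 120. Of the 367 genes that passed only with the block on all compound arrays, 35 passed with the block on the WT arrays alone. Of those described, Mafg, Osgin1, Cbr3, Ahr, Slc40a1, Tlr2, Ccl22, Serpinb2 and Ptx3 were among the 35, while Hmox1, Txnrd1, Abcc4, Pir, Gsta4, Nfe2l2, Ppp1r15a, Tnf and Cxcl5 were not (adjusted p from 0.0763 to 0.224). Without both WT arrays numbered 2, 103 genes passed, and they held 75 of the 120. Of the genes described, Adm, Aox1, Me1, Nqo1, Mt1, Mt2, Cxcl3, Fosl1, Ppard, Dnajb2, Ccl4, Zfp658, Zc3h12d, Ppargc1b, Spsb4, Trim36, Fhl3 and Cep126 did not pass there (adjusted p from 0.059 to 0.211). With the block as well, 702 genes passed, 373 higher and 329 lower, a more even split than the 104 and 16. With 1 WT array left out, 72 genes passed without RA839 array 4, 74 without DMSO array 1 and 80 to 136 without each of the others. A set of 39 genes, 37 that rose and 2 that fell, passed without the block, with it, with only the WT arrays, without both arrays numbered 2 and with each WT array left out in turn. Its 31 named rises were Trim9, Ddit4l, Comp, Ednrb, Fam13a, Cdcp1, Vegfd, Prkaa2, Ptpn14, Calr3, Gdap10, Gss, Fam124a, Slc16a9, Gclc, Rabgap1l, Serpinb9, Gclm, Dnmt3l, Ampd3, Mtfr2, Panx1, Tshz1, Chpf2, Nudt12, Jade3, Nampt, Zadh2, Bag2, Srxn1 and Abcb6. The 2 falls were Fst and Sla. Genes of this set that the text does not describe elsewhere were named after their values were seen.

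Genes of glutathione synthesis rose together. Glutathione is made from cysteine, glutamate and glycine in a pair of steps. The enzyme of the first step has the catalytic subunit Gclc, which had signals of 11.22, 11.10, 11.55 and 11.51 in RA839 cells, against 9.98, 10.15, 10.11 and 9.92 in DMSO cells. The gap between the groups was wider than the range within either of them, and Gclc rose 2.47-fold (1.31 ± 0.14, adjusted p = 0.000213). Gclm, which encodes the modifier subunit of that enzyme, had signals of 11.47, 11.31, 11.41 and 11.59 with RA839, against 10.29, 10.62, 9.88 and 10.36 with DMSO, where the spread was wider than with RA839. Gclm rose 2.23-fold (1.16 ± 0.20, adjusted p = 0.0113). Gss, the glutathione synthetase of the closing step, had signals of 10.52, 11.04, 10.84 and 11.12 with RA839, against 9.17, 9.12, 9.59 and 9.82 with DMSO. Its groups did not overlap, and Gss rose 2.74-fold (1.46 ± 0.16, adjusted p = 0.000279). Other probe sets of the 3 genes moved alike, at 1.31 for Gclc, 1.04 for Gclm and 1.52 for Gss.

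In the whole list of glutathione synthesis, recycling and cystine uptake, Gclc, Gclm and Gss were the 3 of 14 measured genes that rose, and 0 fell. Of all genes, 0.572% rose and 0.0879% fell. The median of the list was 0.24, and 12 of its 14 genes were above 0, against 47.9% of all genes. Slc7a11, the cystine transporter subunit that brings in the sulfur for cysteine, had signals of 11.40, 11.12, 11.34 and 11.64 with RA839, against 10.53, 10.73, 10.64 and 10.56 with DMSO. These groups did not overlap either, but Slc7a11 did not pass without the block (0.76 ± 0.23, adjusted p = 0.218). It rose with the replicate block (adjusted p = 0.00626) and with only the WT arrays in the fit (adjusted p = 0.0363). The block also passed Ggt5, a γ-glutamyl transferase family member (0.57, adjusted p = 0.00519), and Chac2, which cleaves glutathione (0.44, adjusted p = 0.0449). With the block on the WT arrays alone, Slc7a11 and Ggt5 (0.0803 for both) and Chac2 (0.214) did not pass, and Chac2 also missed with the block and without the pair numbered 2 (0.0818). The other Slc7a11 probe set differed by 1.37. Outside this list, the glycine transporter Slc6a9 had signals of 11.57, 11.07, 11.16 and 11.80 with RA839, against 10.23, 9.69, 9.73 and 10.75 with DMSO. Slc6a9 rose 2.46-fold (1.30 ± 0.21, adjusted p = 0.00477), and its call ended with only the WT arrays in the fit (adjusted p = 0.0764). It was the 1 of 17 amino acid transporters that rose, against 0.572% of all genes.

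**Figure D2:**
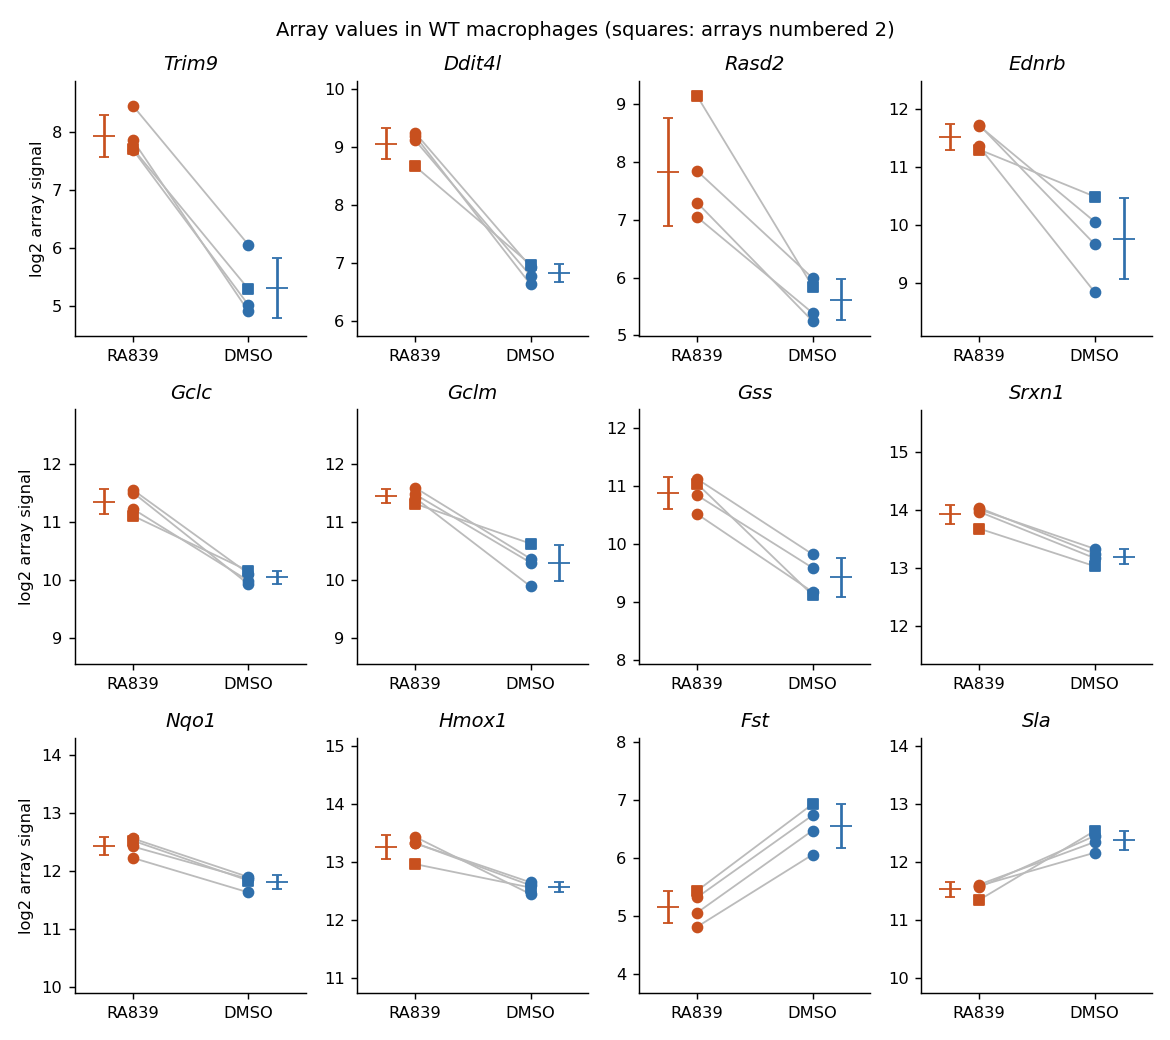
Log2 signal of 12 genes on each WT array, with RA839 at the left and DMSO at the right of each panel; grey lines join same-numbered arrays, squares are the arrays numbered 2, and dashes with bars give the mean and SD of 4 arrays, on a scale of the same span in every panel. In all 12 genes the groups lie apart without overlap (5.79% of all genes), with Fst and Sla lower with RA839 and the others higher. All but Hmox1 passed without the block on these same arrays, so the separation largely follows from the selection.

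Windows of 300 bases around the transcript starts, 250 before and 50 after, were searched on both strands for the antioxidant response element core, TGACNNNGC, in RefSeq sequence of GRCm38.p6. It was present in 30.7% of the genes that rose (27 of 88 with a window), 0 of the 9 that fell with a window, and 16.15% of all 14452 tested genes with a window. Among genes called with the replicate block, it was present in 22.7% of the rises (57 of 251) and 15.9% of the falls (21 of 132). Such a match is a description and not evidence of binding. The stretches around the match are shown for the genes of Nrf2 target and glutathione lists that rose and held one, Gclm, Me1 and Srxn1, and for Ddit4l, the largest rise with a match, which was added after its values were seen. They run 5′ to 3′ on the gene's strand, and capitals mark the match, written as its reverse complement for Gclm and Srxn1, where it lies on the other strand.
Gclm (chr3:122245363-122245491, plus strand): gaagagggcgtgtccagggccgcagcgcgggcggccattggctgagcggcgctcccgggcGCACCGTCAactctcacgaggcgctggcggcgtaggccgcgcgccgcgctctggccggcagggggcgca
Me1 (chr9:86695905-86695980, minus strand): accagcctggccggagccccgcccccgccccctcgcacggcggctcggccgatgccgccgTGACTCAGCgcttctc
Srxn1 (chr2:152105542-152105570, plus strand): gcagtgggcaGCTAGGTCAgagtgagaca
Ddit4l (chr3:137623566-137623681, plus strand): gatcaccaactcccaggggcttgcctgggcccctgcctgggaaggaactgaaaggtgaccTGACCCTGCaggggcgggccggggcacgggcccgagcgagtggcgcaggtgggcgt
The match begins at base −134 from the start in Gclm, −46 in Ddit4l and −6 in Me1, and at base 28 after it in Srxn1. The windows of Gss, Nqo1, Aox1 and Ptgr1 held none, and for Gclc and Abcc1 no window was used here.

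Among 37 measured genes of a wider list of known Nrf2 targets, 8 rose and 0 fell, against 0.572% and 0.0879% of all genes. Above 0 were 35 of the 37, against 47.9% of all genes, and the list median was 0.38. The 8 that rose were Gclc, Aox1, Gclm, Me1, Abcc1, Srxn1, Nqo1 and Ptgr1. Srxn1, which restores over-oxidized peroxiredoxins, had signals of 13.97, 13.68, 14.01 and 14.04 with RA839, against 13.17, 13.03, 13.33 and 13.24 with DMSO. Near the top of the array's range it rose 1.66-fold (0.73 ± 0.11, adjusted p = 0.00263), and its other probe sets differed by 0.64, 1.12 and 1.11. The quinone reductase Nqo1 had signals of 12.43, 12.53, 12.23 and 12.57 with RA839, against 11.87, 11.84, 11.63 and 11.90 with DMSO. Every RA839 array was above every DMSO array, and Nqo1 rose 1.54-fold (0.63 ± 0.12, adjusted p = 0.019). Me1, a malic enzyme that supplies NADPH, rose (0.82 ± 0.15, adjusted p = 0.0118), with signals of 8.42 to 8.78 with RA839 and 7.59 to 7.94 with DMSO. Ptgr1, a reductase of eicosanoids and reactive aldehydes, rose 1.48-fold (0.57 ± 0.09, adjusted p = 0.00487). The aldehyde oxidase Aox1 rose 2.45-fold (1.29 ± 0.24, adjusted p = 0.0176). The calls of Nqo1 and Aox1 ended without WT RA839 array 4 or without WT DMSO array 1, 2 or 3 (adjusted p up to 0.0778 and 0.0703), and that of Me1 without WT RA839 array 4 or WT DMSO array 2 (0.0551). With only the WT arrays in the fit, Nqo1 (0.0556), Ptgr1 (0.102), Aox1 (0.075) and Abcc1 (0.052) did not pass.

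With the replicate block, 17 of these 37 targets rose and 0 fell, against 1.73% and 0.94% of all genes. Of the 9 that it added, Hmox1, the inducible haem oxygenase, had signals of 13.33, 12.96, 13.33 and 13.44 with RA839, against 12.65, 12.56, 12.60 and 12.45 with DMSO. The groups did not overlap, and Hmox1 differed by 0.70 ± 0.21 (adjusted p = 0.204, with the block 0.0131 and with only the WT arrays 0.0485). Mafg, which encodes a small Maf partner of Nrf2, differed by 0.83 ± 0.18 (0.0586, with the block 0.000259 and with only the WT arrays 0.0205). Osgin1, an oxidative stress response gene, differed by 1.23 ± 0.30 (0.0876, with the block 0.00111), and the carbonyl reductase Cbr3 by 0.75 ± 0.22 (0.19, with the block 0.00206). Thioredoxin reductase Txnrd1 differed by 0.36 ± 0.11 on its brightest probe set, at a signal of about 14 (0.222, with the block 0.012). Its dimmer probe sets differed by 1.23 and 1.02, with adjusted p over all probe sets of 0.0287 and 0.0727 without the block. The others were Slc7a11, Abcc4, Pir and Gsta4. Gsta3, a glutathione transferase, had RA839 signals of 11.30, 9.32, 11.20 and 11.44, against 10.18, 10.03, 10.28 and 10.51 with DMSO. The RA839 array numbered 2 lay below all DMSO arrays and the other 3 above them, and this probe set passed without the pair numbered 2 (adjusted p = 0.00153) and not with all arrays (0.581). The other probe set of Gsta3 rose with all arrays, by 1.10 ± 0.15 (adjusted p = 0.00232, over all probe sets).

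**Figure D3:**
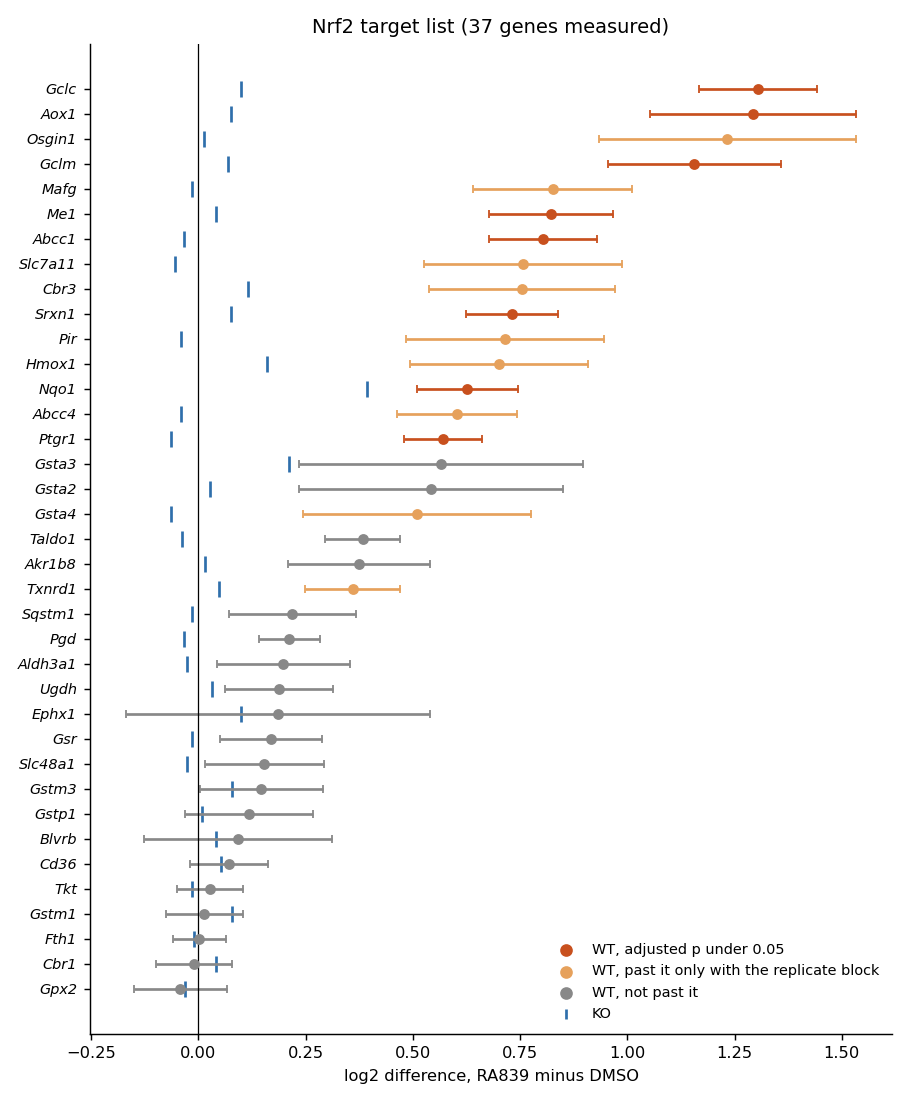
Log2 difference, RA839 minus DMSO, of the 37 measured genes of the Nrf2 target list in WT cells (points with standard errors), coloured by whether they passed without the block, only with the replicate block or not, and in KO cells (ticks). In WT cells 35 genes lie above 0, against 47.9% of all genes, and in KO cells the median of the list is 0.02.

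Narrower redox lists, which share members with the Nrf2 targets, held these changes. Among 10 export pumps, Abcc1, which carries glutathione conjugates out of the cell, rose by 0.80 ± 0.13 and the porphyrin transporter Abcb6 by 0.65 ± 0.10 (adjusted p = 0.00456 and 0.00477), with a list median of 0.40. Among 23 genes of quinone and carbonyl reduction, Nqo1, Ptgr1 and Aox1 rose and 0 fell. In a list of 15 further antioxidant genes the metallothioneins Mt1 and Mt2, which bind metal ions, were the 2 that rose without the block. The list's median was −0.07. With the block the catalase gene Cat also rose (0.42, adjusted p = 0.0204), but not with the block on the WT arrays alone (0.171). The other Cat probe set rose without the block, by 0.72 ± 0.10 (adjusted p = 0.00222, over all probe sets). Mt2 had signals of 11.72, 12.13, 12.32 and 11.81 with RA839, against 10.72, 11.30, 11.53 and 10.70 with DMSO, and rose by 0.93 ± 0.17 (adjusted p = 0.019). Mt1 rose by 0.31 ± 0.07 (0.0378). The call of Mt2 ended without WT RA839 array 2 or 3 or WT DMSO array 1 or 4 (up to 0.0724), and that of Mt1 without any of 6 arrays, all but WT RA839 array 2 and WT DMSO array 3 (up to 0.132); neither passed with only the WT arrays (0.149 and 0.322). Of 13 thioredoxin system genes Srxn1 rose, of 13 NADPH supply genes Me1, and of 22 glutathione transferases 0, against 0.572% of all genes. Of 21 genes of haem and iron handling 0 rose without the block, while the block passed Hmox1 and the iron exporter Slc40a1 (0.97, adjusted p = 0.00194, with only the WT arrays 0.0272). The other Slc40a1 probe set rose without the block, by 1.48 ± 0.24 (adjusted p = 0.0104, over all probe sets). In a list of 9 genes of the aryl hydrocarbon receptor, a sensor of foreign compounds that shares Nqo1 as a target, the receptor Ahr itself differed by 0.71 ± 0.17 (0.0705, with the block 0.00225 and with only the WT arrays 0.0186). With the block, Tiparp, an ADP-ribosyltransferase induced by the receptor (0.54, 0.00557), and the receptor's repressor Ahrr (0.50, 0.0353) also rose. Thus 4 of the 9 rose with the block, against 1.73% of all genes. With the block on the WT arrays alone, Tiparp and Ahrr did not pass (0.0763 and 0.0949).

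Within the machinery that controls Nrf2, 0 of 17 genes passed without the block, against 0.66% of all genes. Nfe2l2 had signals of 12.30, 11.85, 12.58 and 12.48 with RA839, against 12.65, 12.48, 12.96 and 12.80 with DMSO. It was lower with RA839 in all 4 pairs, with overlapping groups, and differed by −0.42 ± 0.14 (adjusted p = 0.264, with the block 0.0198). The dimmer Nfe2l2 probe set differed by 0.07. Keap1 had signals of 10.48, 10.64, 10.72 and 10.66 with RA839, against 10.25, 10.09, 10.40 and 10.43 with DMSO. Its groups did not overlap, and the difference was 0.33 ± 0.10 (0.207, with the block 0.054).

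The largest rises were in genes outside these lists of redox enzymes. Trim9, a ubiquitin ligase known from neurons, had signals of 7.70, 7.72, 7.86 and 8.46 with RA839, against 5.02, 5.29, 4.91 and 6.06 with DMSO. Each RA839 array was more than 1.5 log2 units above each DMSO array, and Trim9 rose 6.12-fold (2.61 ± 0.21, adjusted p = 3.1e-05). Its probe set is of a type that can match other transcripts, and so is the second one, at 3.27, while the remaining probe sets, at signals under 3, differed by 0.21 and 0.07. Ddit4l, which encodes a homologue of the mTORC1 inhibitor Ddit4, had signals of 9.12, 8.67, 9.25 and 9.19 with RA839, against 6.77, 6.97, 6.93 and 6.63 with DMSO. It rose 4.69-fold (2.23 ± 0.21, adjusted p = 6.2e-05), with 2.01 and 1.79 on its other probe sets. Rasd2, a small GTPase known from the striatum, had signals of 7.29, 9.13, 7.84 and 7.04 with RA839, against 5.25, 5.84, 5.99 and 5.39 with DMSO. The array numbered 2 gave the highest RA839 value, and Rasd2 rose 4.63-fold (2.21 ± 0.33, adjusted p = 0.00283), or passed at 0.00131 without the pair numbered 2 and missed the threshold with only the WT arrays (0.0614).

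Receptors, growth factors and matrix genes were among the other large rises. Ednrb, the endothelin B receptor, had signals of 11.71, 11.30, 11.72 and 11.35 with RA839, against 10.05, 10.48, 9.66 and 8.83 with DMSO, where the arrays were spread over more than 1 log2 unit. Ednrb rose 3.39-fold (1.76 ± 0.28, adjusted p = 0.00518). Dimmer probe sets of it, at signals of 5 to 6, differed by 0.47 and 0.14. The cartilage matrix protein Comp rose by 1.76 ± 0.22 (0.000917), and the lymphatic growth factor Vegfd by 1.66 ± 0.19 (0.000445), with 1.98 and 0.78 on the other Vegfd probe sets. Adm, which encodes the vasodilator peptide adrenomedullin, rose by 1.38 ± 0.24 (0.0104, without the pair numbered 2 0.059), on a probe set that can match other transcripts, and its other probe set differed by 0.16. Cdcp1, a membrane protein phosphorylated by Src kinases, rose by 1.72 ± 0.22 (0.001). Bambi, a decoy receptor of the TGF-β family, rose by 1.24 ± 0.23 (0.019), a call that ended without WT RA839 array 4 or WT DMSO array 1, 3 or 4 (up to 0.0714) and with only the WT arrays (0.149). In a list of 21 growth factors, morphogens, their receptors and their antagonists, Ednrb and Vegfd rose and Fst fell. Of all genes, 0.572% rose and 0.0879% fell.

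Prkaa2, a catalytic subunit of the energy sensor AMP-activated kinase, had signals of 7.17, 6.21, 7.08 and 6.70 with RA839, against 5.54, 5.05, 5.28 and 4.73 with DMSO. It rose 3.12-fold (1.64 ± 0.27, adjusted p = 0.00656). With Ddit4l it was 1 of the 2 genes that rose among 20 of the mTOR and AMP kinase pathways, against 0.572% of all genes. Its dimmer probe sets differed by 0.48 and 0.40. The monocarboxylate transporter family member Slc16a9 had signals of 12.15, 11.54, 12.19 and 12.17 with RA839, against 10.74, 10.65, 10.73 and 10.66 with DMSO. The DMSO arrays lay within 0.1 of each other, and Slc16a9 rose 2.49-fold (1.32 ± 0.16, 0.000917). The tyrosine phosphatase Ptpn14 rose by 1.62 ± 0.22 (0.00129), Fam13a by 1.73 ± 0.23 (0.00114) and the Rab GTPase-activating family member Rabgap1l by 1.25 ± 0.18 (0.00198). The probe sets of Rabgap1l disagreed, as the others differed by 1.60, −0.06, −0.08 and 0.12. Those at −0.06 and −0.08 were nearly as bright in DMSO cells as the one used. Acer2, a ceramidase of the Golgi, rose by 1.16 ± 0.18 (0.00393, with only the WT arrays 0.0556), and Serpinb9, a granzyme B inhibitor, by 1.22 ± 0.17 (0.00143). The other probe set of Acer2 differed by −0.02 and that of Serpinb9 by 1.05. Calr3, a calreticulin of the testis, rose by 1.54 ± 0.20 (0.00115), Gdap10 by 1.47 ± 0.13 (4.85e-05) and Fam124a by 1.39 ± 0.17 (0.000917). Dppa2, known from early embryos, had signals of 5.18, 6.32, 4.83 and 4.47 with RA839, against 3.85, 4.01, 3.17 and 3.48 with DMSO. It rose by 1.57 ± 0.32 (0.0333), but not without any 1 of 6 arrays, all but WT RA839 arrays 2 and 4 (up to 0.115), and not with only the WT arrays (0.145). Its other probe set, at 2.64 with RA839 and 2.62 with DMSO, differed by 0.01.

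Genes of the set of 39 with smaller rises included enzymes of nucleotide metabolism. The AMP deaminase Ampd3 had signals of 12.22, 12.19, 12.36 and 12.66 with RA839, against 11.21, 11.05, 11.30 and 11.55 with DMSO, and rose 2.12-fold (1.08 ± 0.14, adjusted p = 0.001). The nucleotide hydrolase Nudt12 rose by 0.94 ± 0.12 (0.00114), and Nampt, the rate-limiting enzyme of NAD salvage, by 0.81 ± 0.11 (0.00199). The large-pore channel gene Panx1 had signals of 12.13, 12.03, 12.44 and 12.39 with RA839, against 11.14, 11.15, 11.26 and 11.36 with DMSO. With no overlap, Panx1 rose 2.03-fold (1.02 ± 0.15, 0.00241).

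Falls without the block were fewer and smaller than rises. Fst, which encodes the activin-binding protein follistatin, had signals of 5.05, 5.43, 4.81 and 5.31 with RA839, against 6.47, 6.93, 6.05 and 6.73 with DMSO. It fell 2.63-fold (−1.40 ± 0.18, adjusted p = 0.001), with a similar gap in each of the 4 pairs, while its other probe set, at 5.37 in both groups, differed by 0.00. Sla, an adaptor that dampens receptor signalling, had signals of 11.58, 11.34, 11.61 and 11.56 with RA839, against 12.16, 12.53, 12.34 and 12.45 with DMSO. It fell 1.80-fold (−0.85 ± 0.13, 0.00409), and its dimmer probe sets differed by −0.58, −0.71 and −0.68. Cblb, a ubiquitin ligase that restrains immune receptors, fell by 0.61 (± 0.09, 0.00393, with only the WT arrays 0.0626). The zinc finger gene Zfp658 was at −0.92 ± 0.16 (0.0126), the RNase family member Zc3h12d at −0.60 ± 0.12 (0.0207), the kinase gene Prkch at −0.45 ± 0.08 (0.0114) and the interferon receptor subunit Ifnar1 at −0.49 ± 0.10 (0.0254). Ppargc1b, a coactivator for mitochondrial genes, was at −0.52 ± 0.11 (0.0436), and the call ended without any 1 of the 8 WT arrays (up to 0.139). The other falls, of Spsb4, Slc51a, Lrrc66, Trim36, Fhl3, Cep126 and Gramd3, were between −0.56 and −0.36. Each of these named falls other than Fst, Sla and Cblb ended when certain single WT arrays were left out: WT RA839 array 4 for Prkch (0.0551), WT RA839 array 3 and WT DMSO arrays 2 and 4 for Zfp658 (up to 0.0526), WT RA839 array 4 and WT DMSO arrays 1, 3 and 4 for Ifnar1 (up to 0.0881), WT RA839 arrays 2 to 4 and WT DMSO arrays 1 to 3 for Zc3h12d (up to 0.0761), and 4 to 7 of the 8 arrays for the rest (up to 0.122).

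Inflammatory genes moved in both directions. Among 14 CC chemokines, which draw monocytes and lymphocytes, Ccl4 fell, against 0.0879% of all genes. In this list 13 of the 14 lay below 0 and 1 above it, with a median of −0.23, while 47.9% of all genes lay above 0. Without both arrays numbered 2 the list median was −0.16, and 0 of the 14 fell without the block and 3 with it. Ccl4 had signals of 8.09, 7.72, 8.26 and 8.04 with RA839, against 8.85, 8.81, 8.90 and 8.70 with DMSO, and fell 1.73-fold (−0.79 ± 0.16, adjusted p = 0.0332). The groups did not overlap, and the call ended without any 1 of 7 arrays, all but WT RA839 array 3 (up to 0.102). With the block, Ccl2, the main monocyte chemokine (−0.95, 0.0339), and Ccl22 (−0.76, 0.00127) also fell. With the block on the WT arrays alone, Ccl22 passed (0.0399) and Ccl2 did not (0.186). In Ccl22 the arrays of a group were up to 3 log2 units apart, from 7.19 to 10.31 with RA839 and from 8.12 to 11.15 with DMSO, and the RA839 array was 0.58 to 0.93 lower in every pair. Among 14 CXC chemokines, Cxcl3, which attracts neutrophils, had signals of 9.20, 8.67, 10.03 and 10.31 with RA839, against 7.21, 6.52, 7.88 and 7.88 with DMSO. It rose 4.53-fold (2.18 ± 0.47, 0.049), with a difference of 1.99 to 2.43 in each pair. Its call ended without any 1 of 7 arrays, all but WT RA839 array 2 (up to 0.158), and with only the WT arrays (0.0626), while with the block its adjusted p was 0.00115.

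Of 23 cytokines and mediators 0 passed without the block, against 0.66% of all genes, and Tnf, the tumour necrosis factor gene, fell with the block (−0.61, adjusted p = 0.021). Its signals were 7.04, 6.90, 7.19 and 6.78 with RA839, against 7.58, 7.78, 7.60 and 7.40 with DMSO, without overlap. Tlr2, a receptor for bacterial lipoproteins, had signals of 10.07, 9.92, 9.90 and 9.77 with RA839, against 10.88, 10.62, 10.86 and 10.99 with DMSO. These groups lay apart, and Tlr2, at −0.92 ± 0.25, passed with the block (0.00475) and with only the WT arrays (0.0142) but not without the block (0.145). Treml4, a receptor of myeloid cells in the same list of 24 scavenger and pattern recognition receptors, had signals of 9.30, 8.29, 9.50 and 9.58 with RA839, against 7.85, 7.26, 7.88 and 8.04 with DMSO. It rose 2.66-fold (1.41 ± 0.31, 0.0494), a call that ended without any 1 of 7 arrays, all but WT RA839 array 2 (up to 0.158), and with only the WT arrays (0.0928). Among the block's largest falls were Serpinb2, a protease inhibitor of activated macrophages (−1.13, 0.00464), and Ptx3, a secreted pattern recognition protein (−0.99, 0.00157). Fosl1, a partner of Jun in AP-1, was the 1 of 21 immediate early genes that rose (1.02 ± 0.22, 0.0442), against 0.572% of all genes. This call ended without any 1 of 7 arrays, all but WT RA839 array 1 (up to 0.142), and with only the WT arrays (0.0695). The dimmer Fosl1 probe set differed by −0.04. In the same list Ier2 (−0.72, 0.0475) and Klf4 (−0.67, 0.00617) fell with the block, and with the block on the WT arrays alone they did not pass (0.211 and 0.0754). In these bulk samples, fewer cells of a kind and less RNA per cell cannot be told apart.

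**Figure D4:**
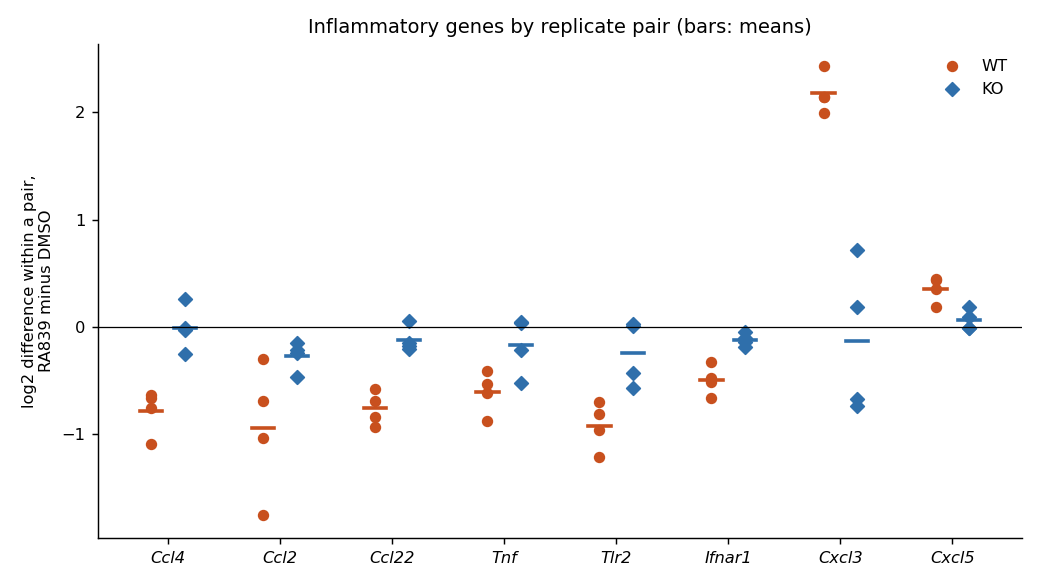
Log2 difference, RA839 minus DMSO, within each same-numbered pair of arrays for 8 inflammatory genes in WT (circles) and KO cells (diamonds), with bars at the means. In WT cells all 4 pairs are below 0 for Ccl4, Ccl2, Ccl22, Tnf, Tlr2 and Ifnar1 and above 0 for Cxcl3 and Cxcl5. Of all genes, 12.5% were lower and 11.8% higher in all 4 pairs. These 8 genes passed with or without the block on these same arrays, so this largely follows from the selection. Cxcl5 had mean signals of 3.30 with RA839 and 2.94 with DMSO, against a lower quartile of 4.61 for all genes in DMSO cells.

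Many lists held no gene that passed without the block. As 0.66% of all genes passed, a count of 0 is common for lists of this size, here and for the other lists with 0. This held for 20 genes of the unfolded protein response, 14 heat shock genes, 34 proteasome genes, 23 genes of autophagy and lysosomes, 20 of cholesterol synthesis, 18 of glycolysis, 22 of the cell cycle, 11 of MHC class II, 8 of the NADPH oxidase and 17 interferon-induced genes, with medians between −0.16 and 0.07. With the block, Irf1, an interferon regulatory factor (0.47, adjusted p = 0.00877), and the proteasome genes Psma5 (0.36, 0.0393) and Psmd11 (0.30, 0.0424) rose, and with the block on the WT arrays alone they did not pass (0.102, 0.266 and 0.273). For the 22 targets of Atf4, the factor of the integrated stress response, the median was 0.04, and the block passed Slc7a11 and the phosphatase subunit Ppp1r15a (0.37, adjusted p = 0.0334). Ppard, a lipid-sensing nuclear receptor, rose among 18 genes of PPAR signalling and fatty acid oxidation (0.83 ± 0.18, 0.0408), and this call ended without any 1 of the 8 WT arrays (up to 0.139). The dimmer Ppard probe set differed by −0.18.

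The macrophage label held in both groups. All 14 measured macrophage markers were above the median gene in DMSO cells, and their summed level, as a mean over markers, lay between 11.57 and 12.42 on the RA839 arrays and between 11.92 and 12.50 on the DMSO arrays. None of the 14 passed without the block (0 genes), and their median was −0.20, or −0.07 without both arrays numbered 2. The block put Fcgr1, a high-affinity antibody receptor (−0.34, adjusted p = 0.0199), and Aif1, a calcium-binding protein of macrophages (−0.32, 0.0426), lower, and neither passed with the block on the WT arrays alone (0.222 for both). Without WT RA839 array 2 the difference of Aif1 was 0.12. Among 11 neutrophil and precursor markers 0 passed, 4 were above the median gene, and the list mean lay between 5.87 and 6.52 with RA839 and between 6.13 and 6.72 with DMSO. Their median was −0.31, and their part in the other differences was not tested.

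Without Nrf2, no gene passed this threshold with RA839 (0 of 18193 genes in limma, also 0 with the block). Without the block, 321 genes had an unadjusted p under 0.05, which is less than the share of 0.05 that chance alone gives. The KO p-values of this fit thus ran high, so small changes in KO cells could be missed. The cause was not tested. The 104 genes that rose in WT cells had a median of 0.04 in KO cells, with quartiles of −0.02 and 0.16. Ddit4l had signals of 4.98, 5.52, 4.90 and 4.90 in KO cells with RA839, against 5.46, 5.39, 4.59 and 4.64 in KO cells with DMSO. The groups overlapped, and the difference was 0.06 ± 0.21. Gclc had signals of 8.80, 8.71, 9.04 and 9.13 with RA839, against 8.63, 8.57, 9.03 and 9.05 with DMSO, also with overlap (0.10 ± 0.14). A difference between the WT and KO responses passed for 21 genes, 0.115% of those tested. All 21 were among the 104 rises, an overlap that is in part built in, since both tests use the same WT arrays. They included Trim9 (2.60 ± 0.29, adjusted p = 0.00183), Gdap10 (1.70 ± 0.18, 0.00183), Ddit4l (2.17 ± 0.29, 0.00787), Gclc (1.21 ± 0.19, 0.0237) and Gss (1.33 ± 0.23, 0.0331), where the values are the WT change minus the KO change. With 1 of the 16 arrays left out, 8 to 26 genes passed, with 8 without WT RA839 array 4 and 9 without WT RA839 array 3 or KO RA839 array 1. It was 10 to 12 without WT DMSO array 1 or 3, KO DMSO array 1 or 4, or KO RA839 array 3 or 4. With the block, the response was larger in WT for 61 genes (0.335%) and lower for 5 (0.0275%), with 43 of the 61 among the 104 rises. For the other rises the difference between genotypes did not pass, which does not show that KO cells responded alike. Of the 104 rises, 12 had an unadjusted limma p under 0.05 and the same sign in KO cells, against 321 of all 18193 genes in either direction. Nqo1 and Mt2 were among the rises with KO values above the upper quartile. Nqo1 had signals of 7.56, 7.48, 7.13 and 7.34 in KO cells with RA839, against 6.98, 7.25, 6.92 and 6.79 in KO cells with DMSO, a difference of 0.39 ± 0.12 (adjusted p = 1), and the WT response exceeded it by 0.23 ± 0.17 (adjusted p = 1). Mt2 differed by 0.35 ± 0.17 in KO cells. Of the 16 falls, 0 differed between genotypes without the block and Fst did with the block (−1.02 ± 0.25, adjusted p = 0.0423), with a KO value of −0.37 ± 0.18.

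The siRNA arrays are separate samples from the compound arrays, so the 2 gene sets can be compared. Of the 104 genes that rose with RA839, 79 also rose with siKeap1-1 (76.0%, against 8.67% of all genes), 79 with siKeap1-2 (76.0%, against 6.32%) and 70 with both (67.3%, against 4.12%). These 70 were 9.33% of the 750 genes that rose with both siRNAs. Of the 16 falls, 7 fell with siKeap1-1 (43.8%, against 6.39% of all genes), 7 with siKeap1-2 (43.8%, against 4.89%) and 5 with both (31.2%, against 2.16%). Among the shared rises, Treml4 differed by 4.08 with siKeap1-1 and 3.07 with siKeap1-2, Cxcl3 by 2.81 and 3.31, Ednrb by 3.18 and 3.31, Slc6a9 by 2.71 and 2.66, Adm by 2.58 and 3.47, and Ddit4l by 2.40 and 2.37. Dnmt3l, a cofactor of DNA methylation, rose by 1.15 ± 0.14 with RA839 and by 2.63 and 1.84 with the siRNAs. Genes that rose with RA839 and did not rise past the threshold with either siRNA numbered 16 (15.4%, against 89.1% of all genes). They included Dppa2, at −0.68 and −0.36 with the siRNAs, Gdap10 at 0.72 and 0.92, and Mt2 at −0.58 and −0.05. Dnajb2, a co-chaperone, rose with RA839 (0.50 ± 0.09, adjusted p = 0.0114, but 0.0541 without WT RA839 array 4, 0.104 with only the WT arrays and 0.0696 without the pair numbered 2) and fell with siKeap1-1 (−0.24, adjusted p = 0.0351). Fst, the largest fall with RA839, was at 0.29 and 0.31 with the siRNAs (adjusted p = 0.62 and 0.61).

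**Figure D5:**
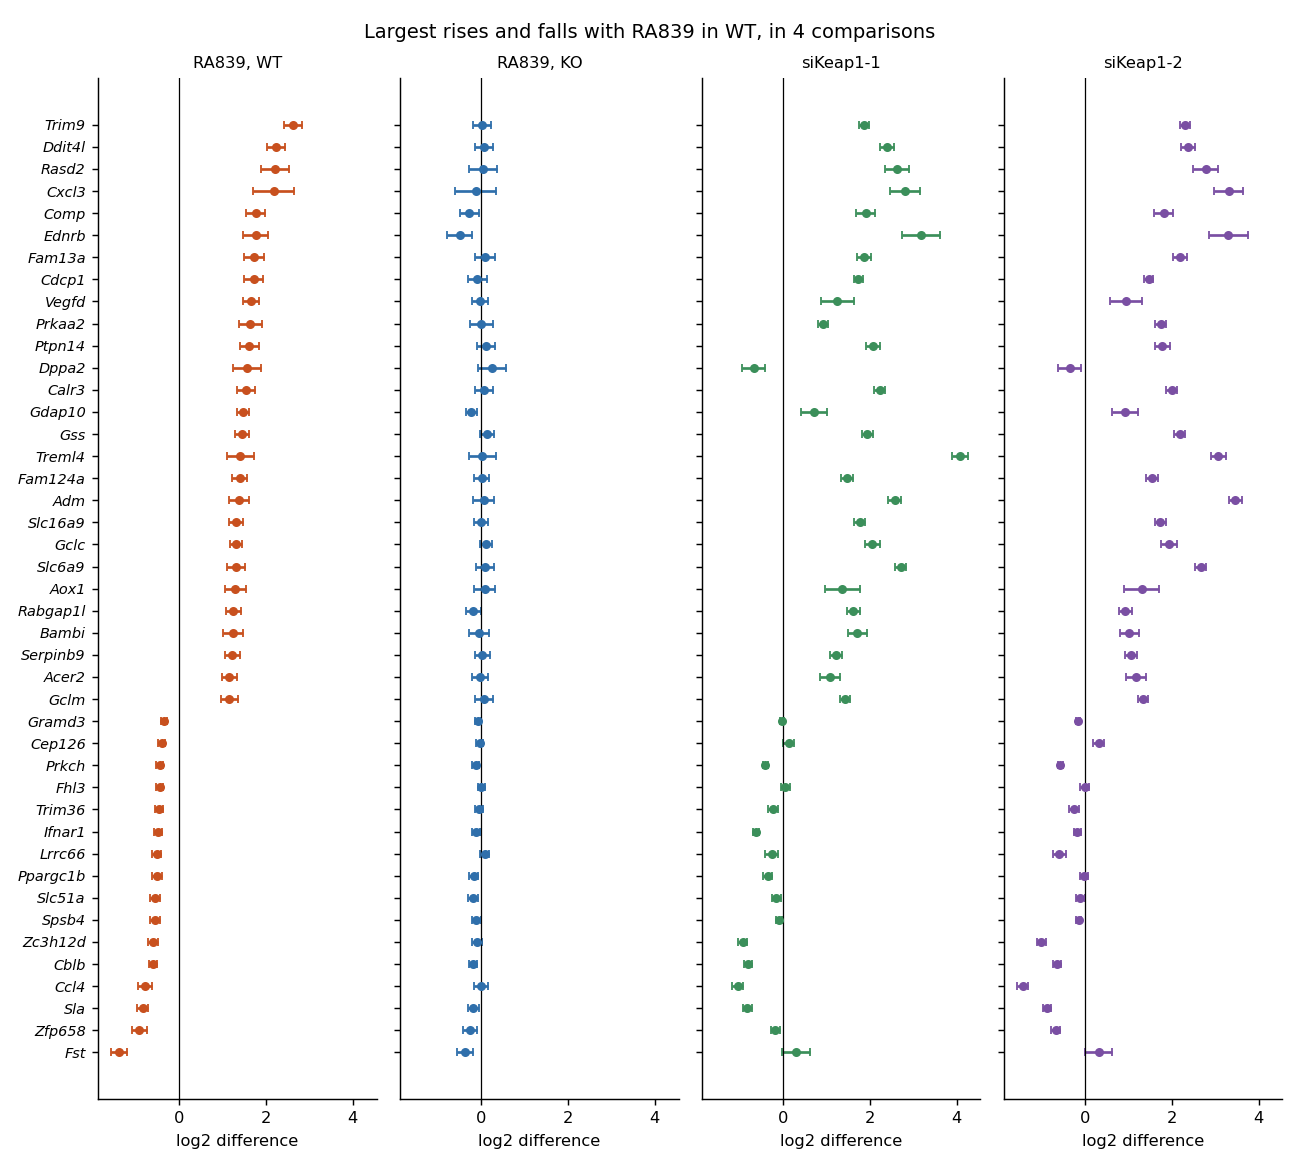
Log2 differences with standard errors of the 27 largest named rises and the 16 falls with RA839 in WT cells, shown for RA839 in WT, RA839 in KO, siKeap1-1 and siKeap1-2. In KO cells the values of these genes lie between −0.50 and 0.25, and with the siRNAs all 27 rises but Dppa2 lie above 0.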

How the data were processed

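RNA from the macrophages had been hybridised to 28 single-colour expression arrays, of which the 8 WT compound arrays carry the comparison and 20 serve as its context. The deposited values are log2 signals per probe set that the authors made with RMA, per the submitters' processing notes; the sources used here give neither its version nor its settings. Probe sets were named through the platform annotation given for the series, probe sets with several genes or none were left out, and each gene was represented by its brightest probe set, by the mean of the 28 arrays, which left 18193 genes. Linear models were fitted with limma 3.58.1 in R 4.3.3, with all 16 compound arrays in a fit and the 12 siRNA arrays in another, and p-values were adjusted by Benjamini-Hochberg over all genes. The procedure was tested on simulated data. The number of arrays limits the precision, and p-values measure the spread among these samples.

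Same-numbered arrays were checked for pairing by correlating their deviations from the group means. The correlations were 0.27 to 0.46 for the WT pairs, 0.66 to 0.70 for the KO pairs, and 0.13 to 0.64 and 0.24 to 0.66 for siKeap1-1 and siKeap1-2, all above 0.1, so the numbers were taken to pair the samples. Some arrays of different numbers also passed 0.1. WT RA839 array 1 and WT DMSO array 2 gave 0.20, and siKeap1-1 array 2 gave 0.13 with siControl array 2 and with array 3. KO arrays 1 and 2 gave 0.49 and 0.52 with each other's number, and arrays 3 and 4 gave 0.53 and 0.55. The KO arrays thus lay in 2 groups, and the fit without the block takes part of its spread from them. The fit without the block is the main one, and the values with it stand beside results that it changes. The members of the comparison and the gene lists were chosen with earlier results of these data known. The named genes are Nfe2l2, Keap1 and 7 classical targets, the 30 largest rises and up to 20 largest falls without overlap, up to 6 called members per list, the 10 largest rises and falls that passed only with the block, the 15 highest shared with both siRNAs, and genes that moved opposite ways with RA839 and an siRNA; others are said to be chosen after their values were seen, and list members that passed only with the block are such. Genes of the lists with no uniquely named probe set were not analysed here.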

Additional observations from a re-analysis of the deposited data

Results flagged for a closer look

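In 208 groups of 4 WT arrays, 6 held an array that stood far from the other 3, where chance alone gives about 1 in 20. They were Adm on WT DMSO array 1 (6.29), Fam124a on WT DMSO array 3 (8.16), Fhl3 on WT DMSO array 3 (3.94), and on WT RA839 array 2 Gsta3 (9.32), Ifnar1 (9.58) and Slc16a9 (11.54). The same array stood apart in the 3′ minus 5′ difference of the Gapdh control (3.74). WT DMSO array 4 stood apart in that of Actb (1.98). The part of RNA quality in the values of array 2 was not tested.

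The change with RA839 was larger in WT than in KO by a test of the difference itself in these genes, with the WT minus KO difference in log2 units: Trim9 2.60, Ednrb 2.26, Ddit4l 2.17, Comp 2.04, Cdcp1 1.82, Gdap10 1.70, Vegfd 1.69, Rabgap1l 1.43, Fam124a 1.38, Gss 1.33, Slc16a9 1.32, Ampd3 1.27, Gclc 1.21, Dnmt3l 1.20, Mtfr2 1.04, Jade3 1.03, Tshz1 0.98 and Chpf2 0.83. Each of these genes was higher with RA839 in all 4 WT pairs, against 11.8% of all genes. They were selected on these same arrays, so this largely follows from the selection.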

How the results depend on the processing

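The count of 120 genes in WT cells was 486 with the replicate block, 208 with array weights, 53 at an adjusted p under 0.01 and 65 with only the WT arrays in the fit. With both WT arrays numbered 2 left out and the replicate block, an alternative chosen after seeing the data, it was 702 (373 higher and 329 lower). With each WT array left out in turn it lay between 72 and 136. The count of 21 genes that differed between WT and KO was 66 with the replicate block, 12 among brighter genes, 8 without probe sets that can match other transcripts, 43 with array weights and 5 at an adjusted p under 0.01, and 8 to 26 with 1 array left out. For siKeap1-1 the 2741 genes became 4371 with the replicate block, 1468 at the stricter threshold and 2018 to 2611 with 1 array left out, and for siKeap1-2 the 2038 became 3719, 991 and 1361 to 1783. The stricter threshold passes fewer genes by construction, and for the others the cause was not tested. RA839 in KO cells gave 0 genes in every alternative run. Without probe sets that can match other transcripts, Trim9 stood at 0.21, and averaging the probe sets of Fst gave −0.70. Of the genes named in the text, Aif1 (−0.32) turned to 0.12 with array weights, and with 1 array left out it lay between −0.75 and 0.12 (without WT DMSO array 2 and WT RA839 array 2); no other changed sign.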

Other observations

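The genes that passed only with the replicate block held further regulators of macrophages. Spic, a transcription factor of iron-recycling macrophages, was higher with RA839 by 1.36, 1.44, 1.53 and 1.28 in the 4 pairs, and its groups did not overlap. Spic rose with the block (1.40, adjusted p = 0.000281, without it 0.0692), with −0.11 to 0.34 in the siRNA experiment. The cell cycle inhibitor Cdkn2b rose likewise (1.29, 0.000641), as did Acss2, which makes acetyl-CoA from acetate (0.99, 0.016). Retnla, a marker of alternative activation, had signals of 5.56, 5.03, 9.74 and 8.04 with RA839, against 7.20, 5.60, 11.17 and 8.67 with DMSO. Its level differed far more between pairs than between groups, and it fell with the block (−1.07, adjusted p = 0.0167). Hcar2, a receptor for hydroxybutyrate and niacin, also fell with the block (−0.91, 0.00745). With the block on the WT arrays alone, Spic, Cdkn2b and Hcar2 passed (0.00477, 0.00477 and 0.0309), and Acss2 (0.0754) and Retnla (0.107) did not.

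Pcx, which encodes pyruvate carboxylase, was among the 104 rises (0.88 ± 0.19, adjusted p = 0.0494), with KO and siRNA values of 0.01, 1.82 and 1.69. Its call ended without any 1 of 6 arrays, all but WT RA839 array 2 and WT DMSO array 4 (up to 0.15). The array's control probe sets for the same transcript read higher at the 3′ than at the 5′ end by 2.52 to 2.75 with RA839 in WT cells, against 1.31 to 1.92 with DMSO, without overlap. In KO cells this difference was 0.43 to 0.83 with RA839, against 0.36 to 0.74 with DMSO, with overlap. It was 2.32 to 2.94 with siKeap1-1 and 2.46 to 2.68 with siKeap1-2, against 0.71 to 1.24 with siControl. These values were noticed after the data were seen, and the levels at each end were not tested.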
